A study of Mus musculus with 768 samples.

Results

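The S100 calcium-binding proteins were followed through 7 days of cochlear organoid culture in single cells. The members are 8 genes taken by symbol from both deposited count tables, S100a1, S100a4, S100a6, S100a10, S100a11, S100a13, S100a16 and S100b, of the 52636 genes listed there. The genes were chosen with earlier results of these data known, though no measured value was used as a threshold. The cells were grown from greater epithelial ridge (GER) cells, the columnar epithelium on the inner side of the cochlear hair cells, sorted by flow cytometry from postnatal day 2 mice. All mice were of the strain Fgfr3-CreERT2/Ai14-tdTomato/Sox2-GFP, in which a tamoxifen-inducible Cre under Fgfr3 can switch on tdTomato and GFP reports Sox2. All groups shared one DMEM/F-12 medium holding the N-2 and B-27 supplements, ampicillin, the growth factors EGF, FGF2 and IGF1, and the small molecules CHIR99021, valproic acid, 2-phospho-L-ascorbic acid and the TGFß receptor inhibitor 616452, and no group without these agents stands beside them. Organoids were dissociated with trypsin, and cells were picked by hand into plates, so shares are of picked cells. The labelled groups are culture days: day 1 (3 replicates, 182 retained cells), day 3 (3 replicates, 228 cells) and day 7 (5 replicates, 301 cells). A replicate is called a culture below. The labels do not say whether replicates came from separate mice or dissociations, so p-values measure the spread between these cultures, which may be technical.

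S100 proteins are small proteins with a pair of EF-hand calcium-binding loops, and most work as dimers that bind and regulate a partner when calcium rises. S100a10 differs in that its EF hands no longer bind calcium, and it forms a complex with annexin A2 at membranes, while S100a11 binds annexin A1 and S100a6 (calcyclin) binds annexins and calcyclin-binding protein. In the inner ear S100 proteins are best known as antibody markers of particular sensory, supporting and glial cells.

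In these organoids 5 of the 8 genes made up nearly all of the family's reads, and they showed 2 patterns. S100a6, S100a10 and S100a11 were lower at day 7 than at day 1 in every culture. In mean CPM S100a6 was lower by 18.6-fold, S100a10 by 2.48-fold and S100a11 by 2.36-fold. CPM are counts per culture scaled to its reads on the genes tested, adjusted by its TMM factor. S100a1 and S100a13 lie on opposite strands, with their first bases in the GENCODE annotation 43 bases apart. Both passed the test between no pair of days, but varied together from cell to cell. Both were also lower in cycling than in non-cycling cells of the same culture. S100a1 also differed between the 2 deposited tables of cells by more than between days. S100a4, S100a16 and S100b had reads in few cells.

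A culture held between 26391412 and 72483565 reads on genes, summed over its retained cells, and the median retained cell had 798924 reads. All 5 epithelial markers (Epcam, Cdh1, Krt8, Krt18 and Cldn6) had a mean of at least 1 CPM on every day, and the 9 GER genes summed to between 9799 and 14195 CPM in a day 1 culture, between 4205 and 8257 at day 3 and between 2260 and 4911 at day 7. Macrophage markers summed to at most 3.75 CPM, endothelial markers to at most 0.466 CPM and melanocyte markers to at most 5.74 CPM in any culture. Of the 768 cells, 384 were deposited in each of 2 tables. The first table holds day 1 culture 1, day 3 culture 1 and day 7 cultures 1 to 4, and the second holds the other 5 cultures. What the division stands for is not given in the sources used here, and it is given beside each result that it touches.

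Of the members, 7 lie on mouse chromosome 3 and S100b lies on chromosome 10 (GRCm38, GENCODE M21, same identifier versions as in the deposited tables). The first group on chromosome 3 holds S100a1 (90511034 to 90514392, minus strand), S100a13 (90514435 to 90524581, plus), S100a16 (90537254 to 90543151, plus), S100a4 (90603771 to 90606045, plus) and S100a6 (90612882 to 90624181, plus). A further 2896307 bases on come S100a11 (93520488 to 93526287, plus) and S100a10 (93555080 to 93564643, plus), and S100b spans 76253853 to 76261159 on the plus strand of chromosome 10. No exon of S100a1, S100a6, S100a10, S100a11, S100a13, S100a16 or S100b overlaps an exon of another annotated gene. S100a4 shares 302 exon bases with Gm42674 on the same strand, a gene model with 2 reads in 1 retained cell.

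RefSeq promoter windows (GRCm38.p6, from 250 bases before to 50 bases after a start) were found for 7 of the 8 members, all but S100a10. The stretches below are shown because the genes beside them carry the results. The first is the whole interval between the first GENCODE bases of S100a1 and S100a13, with those 2 bases in capitals. Transcription leaves it to the left for S100a1 and to the right for S100a13. The RefSeq start of S100a1 lies further inside its gene, so the RefSeq starts are farther apart. The others are the window bases before the first annotated exon base of S100a11 and of S100a6, with matches to the AP-1 motif TGANTCA, searched on both strands, in capitals.
S100a1-S100a13, chr3:90514392-90514435, plus strand: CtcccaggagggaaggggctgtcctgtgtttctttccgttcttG
S100a11, chr3:93520246-93520487, plus strand: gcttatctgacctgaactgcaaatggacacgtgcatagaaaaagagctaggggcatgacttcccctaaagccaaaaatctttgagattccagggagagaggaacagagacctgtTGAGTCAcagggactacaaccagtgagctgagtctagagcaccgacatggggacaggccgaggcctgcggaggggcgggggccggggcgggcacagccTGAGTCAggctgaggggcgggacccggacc
S100a6, chr3:90612644-90612881, plus strand: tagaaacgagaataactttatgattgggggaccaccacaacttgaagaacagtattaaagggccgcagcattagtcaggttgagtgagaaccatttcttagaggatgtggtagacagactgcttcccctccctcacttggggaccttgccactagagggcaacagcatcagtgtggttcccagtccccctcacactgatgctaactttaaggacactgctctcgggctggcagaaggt

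The S100a11 stretch holds 2 AP-1 matches, whose first bases lie 136 and 38 bases before the RefSeq start, and the S100a6 stretch holds 0. Over all 32851 RefSeq windows of 300 bases, 7.81% held at least 1 match to TGANTCA and 0.46% at least 2. Of the other member windows, 1 of the 2 for S100a16 held a single match. The TEAD motif GGAATG and the SOX motif ACAATGG, held by 14.7% and 3.66% of all windows, had no match in any member window, also on both strands. The motifs do not overlap one another in these windows. The S100a1-S100a13 interval is 44 bases long with both first bases counted, and 56.8% of it is G or C.

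S100a6, also called calcyclin, had 241.7, 380.4 and 322.3 CPM in the day 1 cultures. At day 3 it had 134.9, 196.8 and 109.3 CPM, and at day 7 it had 12.6, 12.5, 18.6, 10.8 and 29.9 CPM in cultures 1 to 5. The 3 days did not overlap, and the highest day 7 value, in culture 5, was under the lowest day 3 value. Mean levels were 315 ± 69.6 CPM at day 1 (SD, n = 3), 147 ± 45 at day 3 (n = 3) and 16.9 ± 7.85 at day 7 (n = 5). From day 1 to day 7 it fell by 4.22 on the log2 scale (SE 0.34, adjusted p = 0.000149), and from day 3 to day 7 it fell by 3.12 (SE 0.33, adjusted p = 0.00156), by the edgeR quasi-likelihood test with Benjamini-Hochberg adjustment over 17466 genes. The day 3 against day 1 difference, -1.10 (SE 0.37), did not pass (adjusted p = 0.375). The day 7 against day 1 difference was also called within the first table alone (-4.19, edgeR adjusted p = 0.0202), within the second alone (-3.55, 0.0271) and among non-cycling cells alone (-3.17, 0.00697). The day 7 against day 3 call was lost with either table alone (-3.30, adjusted p = 0.199, and -2.33, 0.0911). Where a table holds 1 culture of a day, these fits take its spread from the remaining days.

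S100a10 (p11), the annexin A2 partner, had 127.0, 182.7 and 166.1 CPM in the day 1 cultures, 105.3, 146.0 and 109.3 CPM at day 3, and 49.3, 67.0, 58.4, 65.2 and 79.8 CPM at day 7. Every day 7 culture was below every culture of the earlier days, while days 1 and 3 overlapped. The mean fell from 159 ± 28.6 CPM (SD, n = 3) at day 1 to 63.9 ± 11.3 (n = 5) at day 7, a log2 difference of -1.31 (SE 0.20, edgeR adjusted p = 0.00306). Against day 3 the difference of -0.91 (SE 0.20) missed the threshold with an adjusted p of 0.0502. The day 7 against day 1 call was lost with either table alone, at -1.13 (adjusted p = 0.172) in the first and -1.13 (0.156) in the second, and among non-cycling cells alone at -1.05 (0.0529).

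S100a11 (calgizzarin), which binds annexin A1, had 103.6, 115.0 and 89.7 CPM in the day 1 cultures, 72.3, 99.4 and 81.1 CPM at day 3, and 44.0, 45.2, 29.3, 42.8 and 56.2 CPM at day 7. As for S100a10, the day 7 cultures lay below all others and days 1 and 3 overlapped. The log2 difference between day 7 and day 1 was -1.24 (SE 0.21, edgeR adjusted p = 0.00565), and that between day 7 and day 3 was -0.95 (SE 0.21, adjusted p = 0.0534), just outside the threshold. The day 7 against day 1 call was lost with either table alone (-1.41, adjusted p = 0.153, and -0.86, 0.278). Without day 7 culture 5 both S100a10 and S100a11 were also called lower at day 7 than at day 3 (adjusted p = 0.0382 and 0.0371).

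Marker levels moved with the days as well. The summed GER marker level of every day 7 culture was below that of every day 1 culture, and the tectorial membrane gene Tectb, the most abundant of them at day 1, had 8308 mean CPM at day 1 and 692 at day 7. Of the other GER genes, Dcn had 555 and 527 mean CPM and Calb1 had 8.13 and 30.6. The epithelial markers summed to between 3470 and 5472 CPM in a day 1 culture and between 1850 and 2930 CPM at day 7, and neuron markers to between 63.4 and 156 CPM and between 11.5 and 29.5 CPM. The part of these in the S100 differences was not tested.

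**Figure D1:**
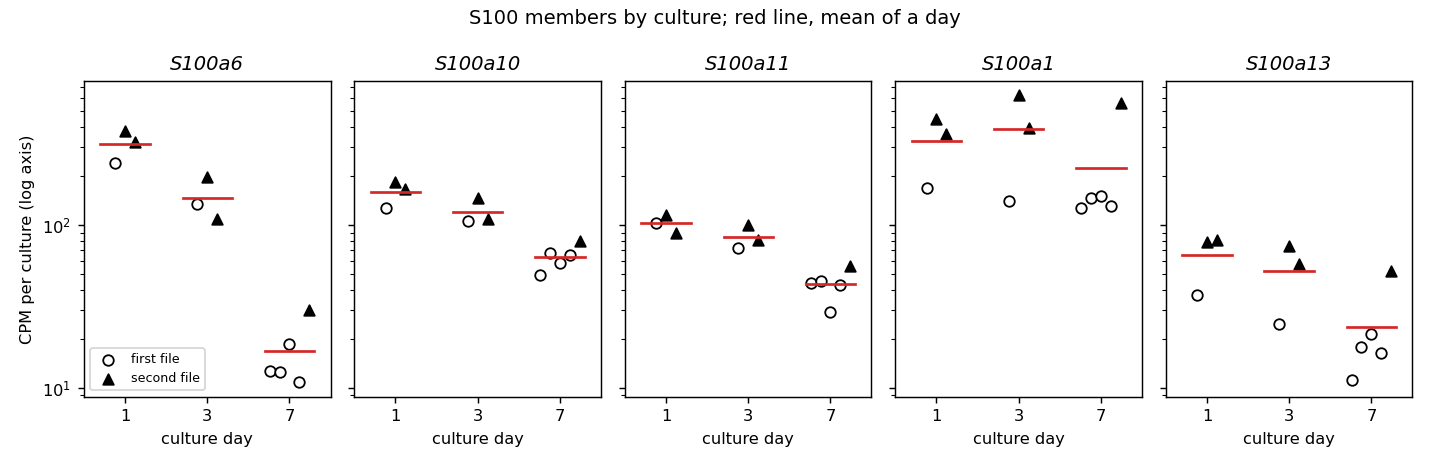
CPM of the 5 abundant S100 genes (log axis) against culture day, with 1 point per culture, open circles for the first deposited table, filled triangles for the second and a red line at the mean of a day. S100a6 drops from 241.7 to 380.4 CPM at day 1 to 10.8 to 29.9 CPM at day 7, while S100a1 and S100a13 separate by table on every day.

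S100a1, a calcium sensor best known from heart and skeletal muscle, had 169.8, 447.4 and 364.9 CPM in the day 1 cultures, 140.3, 625.6 and 397.3 CPM at day 3, and 127.1, 146.6, 151.8, 130.2 and 562.8 CPM at day 7. On each day the cultures of the second table were high and those of the first were low, and the days overlapped throughout. None of the differences between days passed the edgeR test, with log2 values of 0.24 (SE 0.63, adjusted p = 0.957) for day 3 against day 1, -0.55 (SE 0.56, 0.608) for day 7 against day 1 and -0.79 (SE 0.56, 0.678) for day 7 against day 3. The sign for day 7 against day 1 turned to 0.07 with the table as a term, to 0.47 in the second table alone and to 0.13 in non-cycling cells alone.

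S100a13, which takes part in the release of FGF1 and interleukin 1 alpha without a signal peptide, had 37.4, 78.8 and 81.2 CPM at day 1, 24.5, 74.0 and 57.8 CPM at day 3 and 11.2, 17.9, 21.3, 16.5 and 52.0 CPM at day 7. It had the same high and low cultures as S100a1, and again the days overlapped. The day 7 against day 1 difference of -1.47 (SE 0.47) did not pass the edgeR test (adjusted p = 0.0816). Of 23 alternatives, 6 called it, among them the table as a term (-0.91, adjusted p = 0.0434), replicate number as a block (-1.93, adjusted p = 0.00588) and the fit without day 7 culture 5 (-1.98, adjusted p = 0.0122). It was not called in the first table alone (-1.20, adjusted p = 0.292), in the second alone (-0.62, 0.416) or among non-cycling cells alone (-0.65, 0.721).

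The split by table was tested after it had been seen, in an edgeR fit with day and table as terms over all 11 cultures. S100a1 was higher in the second table by 1.73 on the log2 scale (SE 0.17, adjusted p = 0.00564), with 127.1 to 169.8 CPM over the 6 cultures of the first table and 364.9 to 625.6 CPM over the 5 of the second. Only 4 of 17466 genes, 0.0229%, were called in this comparison, and 2304 had an unadjusted p under 0.05. S100a1 ranked 2 of all genes by p, beside the mitochondrial genes mt-Co2 (log2 difference 1.17, adjusted p = 0.0041) and mt-Atp6 (1.3, 0.00732) and the gene model Gm28437 (0.99, 0.00895). S100a13 ranked 5, with a difference of 1.40 (SE 0.20) that did not pass (adjusted p = 0.0761). The corresponding values were 0.66 for S100a6, 0.38 for S100a10 and 0.28 for S100a11, and none of these passed. The S100a1 call was lost without day 3 culture 1 (1.70, adjusted p = 0.0732), without day 7 culture 5 (1.55, 0.21) and among non-cycling cells alone (1.29, 0.442). What the tables differ in was not tested.

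Read against all genes, the members' calls were as follows, for a list chosen with earlier results of these data known. For day 7 against day 1, 3 of 8 members were called, all 3 lower, where 7.11% of 17466 genes were called and 3.56% were called lower. For day 7 against day 3, 1 of 8 was called, S100a6, where 0.968% of 17466 genes were called and 0.784% were called lower. For day 3 against day 1, 0 of 8 members were called by edgeR, where 0.0115% of 17466 genes were called. In that comparison 1 member, S100a6, had an unadjusted p under 0.05, and neither the DESeq2 Wald test nor limma on mean CPM per cell called any. Cultures did not overlap for 4 members at day 7 against day 1 (S100a4, S100a6, S100a10 and S100a11), against 17.8% of 17466 genes. They did not overlap for 4 at day 7 against day 3 (S100a6, S100a10, S100a11 and S100a16), against 8.13% of 17466 genes, and for 2 at day 3 against day 1 (S100a4 and S100a6), against 18.0% of 17466 genes. The median fitted log2 difference over the 8 members was -1.83 for day 7 against day 1, beside 0.0028 over all genes tested, and all 8 values were below 0. The 3 sparse members take part in that median with wide errors.

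Levels of different genes can be set side by side only per length of transcript, here CPM per kilobase of merged exons. At day 1 S100a1 led with 472 ± 205 CPM per kilobase (SD, n = 3), followed by S100a6 with 230 ± 50.9, S100a11 with 201 ± 24.9, S100a10 with 131 ± 23.6 and S100a13 with 92.1 ± 34.4. At day 1 the SDs about the means overlapped for S100a1 and S100a6, for S100a6 and S100a11, and for S100a10 and S100a13. At day 7 S100a1 had 322 ± 274 CPM per kilobase (n = 5), S100a11 85.1 ± 18.7, S100a10 52.8 ± 9.29, S100a13 33.2 ± 22.6 and S100a6 12.4 ± 5.75. S100a6 thus went from the second highest mean to the lowest of the 5. At day 7 the SDs about the means overlapped for S100a6 and S100a13, and for S100a13 and S100a10. The wide SD of S100a1 at day 7 overlapped those of S100a11, S100a10 and S100a13. Within every culture, though, S100a1 was the highest per kilobase. Within each day 7 culture S100a13 was above S100a6 per kilobase, and it was below S100a10 in all but culture 5. These orders were not tested. S100a4, S100b and S100a16 had 4.9, 1.88 and 1.12 CPM per kilobase at day 1. Merged exons of all isoforms can be longer than the transcript a cell makes, most of all for S100a6 with 1367 merged exon bases.

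Because each cell was sequenced on its own, the number of cells with a read can be given beside the level in a cell. These measures are not independent, since a lower level leaves more cells without a read by sampling alone. Each cell was thinned at random to 200000 reads, which left 695 cells. A read of S100a6 was found in 97.2% ± 2.18 of cells at day 1 (SD over cultures, n = 3), 78.0% ± 1.62 at day 3 (n = 3) and 46.5% ± 8.84 at day 7 (n = 5). By day 7 the culture shares ran from 35.9% to 56.5%, with no overlap with the earlier days. The exact two-sided permutation test over cultures gave p = 0.0179 for day 7 against either earlier day, the smallest it can give with 3 against 5 cultures (n = 3 and 5), and an adjusted p of 0.143 over 24 comparisons. With 3 against 3 cultures it cannot go below 0.1, so no comparison in this set could pass between days 1 and 3. No share of the 24 passed after adjustment. Before thinning, 97.8%, 82.0% and 57.5% of retained cells had a read of S100a6.

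Levels within a cell followed the same order. The median day 1 cell had 55 S100a6 reads of 200000, the median day 3 cell 9 and the median day 7 cell 0. Cells with at least 10 reads made up 90.0% at day 1, 49.0% at day 3 and 6.93% at day 7 as means over cultures. Over the pooled cells of a day, the tenth with the most S100a6 held 32.3% of its reads at day 1, 50.2% at day 3 and 75% at day 7. The highest day 7 cell, in culture 5, had 222 reads. The day 7 mean was 3.72 reads per cell, with 7.08 in culture 5 and 2.14 to 3.12 in cultures 1 to 4. Such a share also rises as counts near 0, and it was 100% for the sparse S100a16 on each day.

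S100a10 and S100a11 kept at least 1 read in most cells, while the share with at least 10 reads fell for both. As means over cultures, cells with at least 10 reads of S100a10 made up 90.6%, 76.9% and 50.0% at days 1, 3 and 7. For S100a11 they made up 71.2%, 60.1% and 38.0%. At day 7 a read of S100a10 was found in 91.1% ± 7.13 of cells and one of S100a11 in 95% ± 4.71 (SD, n = 5), beside 99.0% and 97.9% at day 1. Their medians per cell were 27, 20 and 10 reads for S100a10 and 16, 12 and 8 reads for S100a11 at days 1, 3 and 7. The tenth of cells with the most reads held 30.2%, 32.3% and 32.4% of the S100a10 reads on these days, and 29.4%, 34.6% and 29.4% of the S100a11 reads. The whole distribution of both genes was shifted to lower counts at day 7.

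**Figure D2:**
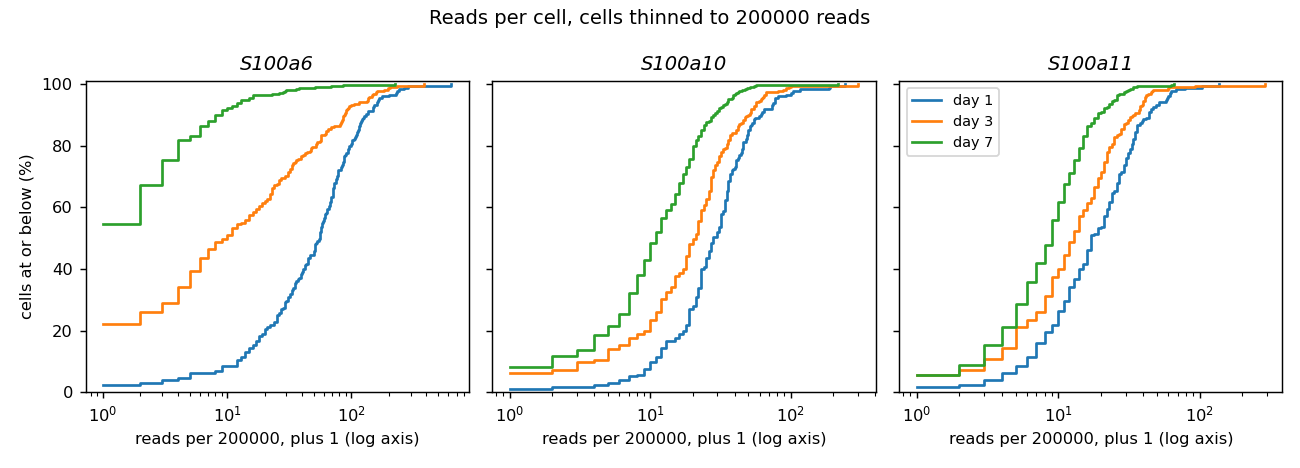
Percent of cells at or below a given number of reads, against reads per 200000 plus 1 (log axis), for S100a6, S100a10 and S100a11, with 1 step line per day over all cells of that day. The S100a6 curve starts above 50% at day 7, where the median cell has 0 reads, while the S100a10 and S100a11 curves move left. The S100a10 curve also widens, with quartiles of 18 and 40 reads at day 1 and 5 and 18 at day 7. Those of S100a11 are 9 and 29 reads at day 1 and 4 and 12 at day 7.

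S100a1 was found in 92.0% ± 2.34, 85.6% ± 5.10 and 88.9% ± 7.61 of cells at days 1, 3 and 7 (SD, n = 3, 3 and 5), and the median cell had 35, 14.5 and 13 reads. Over the pooled cells of a day, the tenth with the most held 42.0%, 56.3% and 62.7% of the reads on the 3 days. The highest cell, in day 7 culture 5, held 2420 of 200000 reads. These values mix cultures of both deposited tables, which differed in level. At day 7 the mean per cell was 128 reads in culture 5, of the second table. It was 24.6 to 31.5 reads in cultures 1 to 4, and the culture medians ran from 4 to 47 reads. S100a13 was found in 72.4% ± 5.87, 55.7% ± 8.67 and 51.6% ± 15.4 of cells. At day 7 the S100a13 share ran from 33.3% in culture 3 to 72.0% in culture 5, so that the culture with the highest level also had the most positive cells.

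The other 3 members were rare. S100a4, a marker of motile fibroblast-like cells that binds non-muscle myosin, had 4.07, 2.67 and 1.86 CPM in the day 1 cultures, 0.581, 0.899 and 0 CPM at day 3 and 0.899, 0, 0.0903, 0.236 and 0.347 CPM at day 7. It was found in 15% ± 4.36 of day 1 cells (n = 3), 4.51% ± 3.99 of day 3 cells (n = 3) and 1.84% ± 1.93 of day 7 cells (n = 5). The fitted difference between day 7 and day 1, -3.18 (SE 1.41), did not pass the edgeR test (adjusted p = 0.19). The culture shares of days 1 and 7 did not overlap, with an exact permutation p of 0.0179 and an adjusted p of 0.143 (n = 3 and 5). Of the 8 fibroblast markers, 4 had a mean of at least 1 CPM at day 1, 7 at day 3 and 1 at day 7, and they summed to between 876 and 1023 CPM, 515 and 657 CPM, and 379 and 1795 CPM. Nearly all of that sum was Lum, which had a read in 679 of 711 retained cells, and Col3a1 was at 0 on days 1 and 7. Their part in the S100a4 values was not tested.

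S100b, best known from glia, had 2.41, 5.63 and 0.341 CPM at day 1, 1.02, 0.176 and 2.14 CPM at day 3 and 1.15, 0.396, 0.127, 0.0147 and 0.174 CPM at day 7. Reads of S100b were found in 32 of the 711 retained cells, and the 2 cells with the most, both of day 1 culture 2, held 20.8% of its 702 reads each. None of its differences between days passed. The glial and Schwann markers summed to between 75.4 and 110 CPM in every culture, led by Sox10 with reads in 635 cells, while Foxd3 was at 0 on each day.

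S100a16 had 0.232, 3.19 and 2.01 CPM at day 1, 0.942, 2.29 and 2.04 CPM at day 3 and 0.651, 0, 0.253, 0.839 and 0.214 CPM at day 7. Every day 7 culture was below every day 3 culture, but the fitted difference of -2.15 (SE 1.17) did not pass (adjusted p = 0.527). It had reads in 26 retained cells. A count of 0, as for S100a16 in 37 cells of day 7 culture 2, allows a share of up to 9.49% by the exact 95% binomial interval, which covers counting error only.

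**Figure D3:**
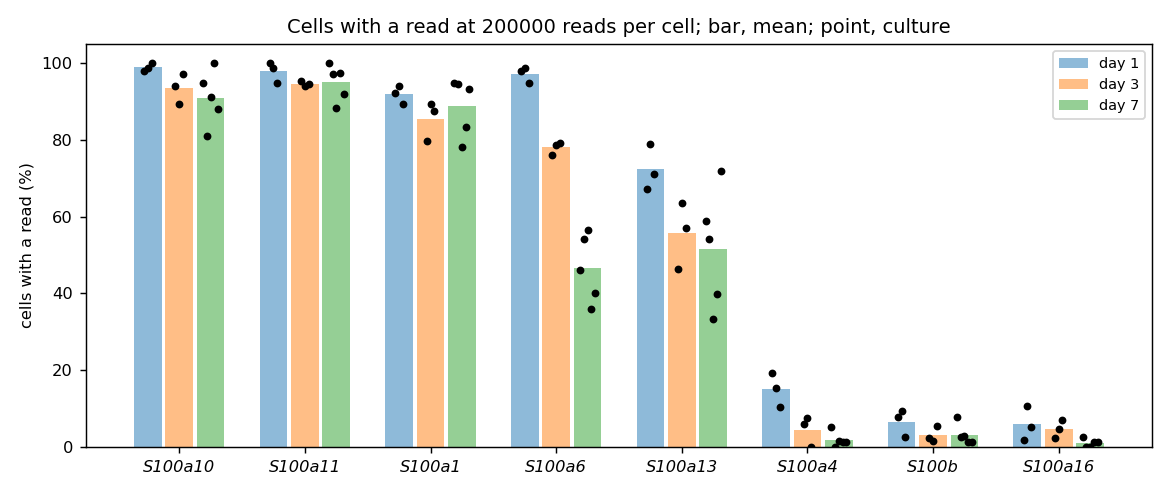
Percent of cells with at least 1 read after thinning to 200000 reads, for the 8 members at days 1, 3 and 7, with bars at the mean of the cultures and 1 point per culture. S100a10, S100a11 and S100a1 stay above 75% in every culture, S100a6 goes from 97.2% to 46.5%, and S100a4, S100b and S100a16 stay below 20%.

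Cells were also split within each culture by the cell cycle. A cell counted as cycling with a read, after thinning, in at least 3 of 6 mitotic genes (Birc5, Ccnb2, Cdk1, Mki67, Top2a, Tpx2), and the cells of each class were summed per culture and compared in an edgeR fit with the culture as a block. Of the 6 members that passed the count filter, 4 were called, all lower in cycling cells, where 14% of 13206 genes were called. S100a4 and S100b did not pass the filter. The smallest classes were the cycling cells of day 1 culture 3 and the non-cycling cells of day 7 culture 3, with 9 cells each.

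S100a1 had 46.4 to 272 CPM in the cycling cells of a culture and 164 to 1146 CPM in the non-cycling cells. It was lower in the cycling cells in all 11 cultures, and the log2 difference was -2.02 (SE 0.19, edgeR adjusted p = 7.13e-06). S100a13 had 3.8 to 35.4 CPM in cycling and 11.4 to 131 CPM in non-cycling cells, also lower in all 11 cultures (-2.27, SE 0.29, edgeR adjusted p = 9.05e-05). In day 7 culture 1 the S100a13 values were nearly equal, 11.1 and 11.4 CPM.

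S100a6 was lower in cycling cells, with a log2 difference of -1.49 (SE 0.28, edgeR adjusted p = 0.00227), and in 10 of 11 cultures, with day 1 culture 1 as the exception at 254.8 against 250.9 CPM. S100a10 differed by -0.36 (SE 0.10, edgeR adjusted p = 0.0285) and S100a11 by -0.37 (SE 0.13, adjusted p = 0.0733), so that the second did not pass although its value was as large. The S100a10 call was lost in 8 of the 11 fits that left out 1 culture, with adjusted p-values from 0.0246 to 0.0912 over the 11. S100a16 differed by -1.16 with an SE of 1.69 and did not pass. The S100a6 difference between days was present in both classes: non-cycling cells had 250.9 to 393.1 CPM in the day 1 cultures and 15.99 to 87.8 CPM in the day 7 cultures. The 87.8 CPM came from the 9 non-cycling cells of day 7 culture 3.

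**Figure D4:**
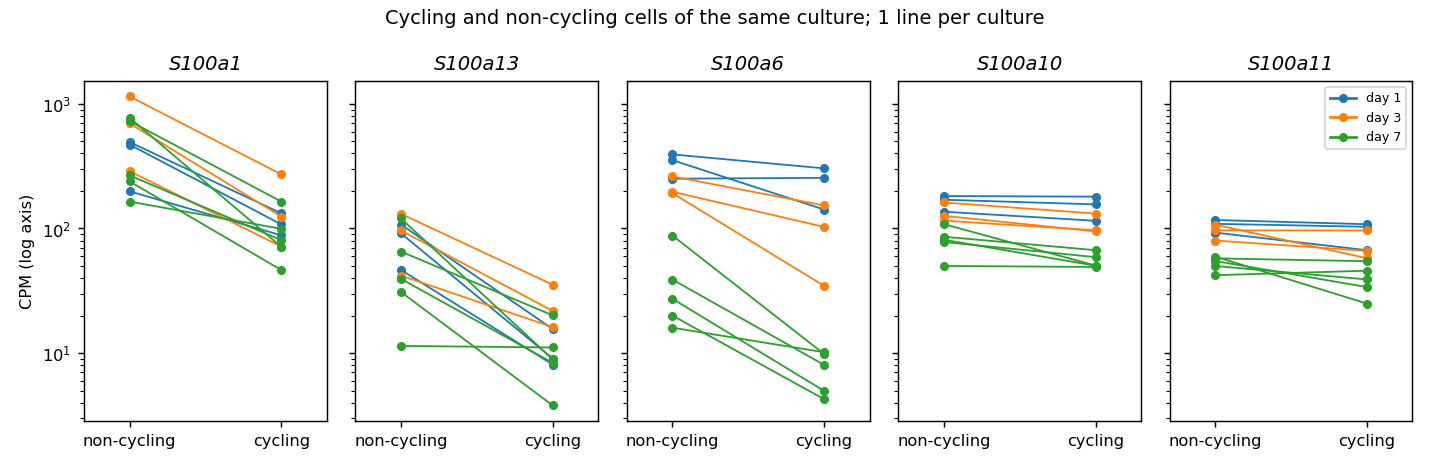
CPM (log axis) of S100a1, S100a13, S100a6, S100a10 and S100a11 in the non-cycling and cycling cells of the same culture, with 1 line per culture coloured by day. All 11 S100a1 and all 11 S100a13 lines slope down, and most S100a10 and S100a11 lines slope less. Day 7 culture 3, with only 9 non-cycling cells, is the steepest of both (108.4 to 50.4 and 59.5 to 25 CPM).

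Co-variation was measured as the Spearman correlation across the thinned cells of 1 culture, averaged over the 11 cultures. Cells of a culture share preparation, and the values are a description with no test. S100a1 and S100a13 were the closest pair of members, with a mean correlation of 0.62 and values between 0.18 (the first day 7 culture) and 0.82 (the third day 3 culture). The correlation was 0.65, 0.80 and 0.73 in the day 1 cultures, 0.69, 0.80 and 0.82 at day 3 and 0.18, 0.44, 0.44, 0.56 and 0.68 at day 7. Among non-cycling cells alone the mean was 0.66. S100a6, S100a10 and S100a11 formed the second set, with means of 0.44 for S100a6 and S100a11, 0.35 for S100a10 and S100a11 and 0.31 for S100a6 and S100a10. S100a10 and S100a13 were the least alike of the 5 abundant genes at 0.097.

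The S100a1 and S100a13 value was set beside that of other genes that start head to head, meaning protein-coding genes on opposite strands whose starts lie within 1000 bases and that both have a mean of at least 20 CPM. The median over 171 such pairs was 0.0858, the range between the 5th and 95th percentile was -0.019 to 0.20, and S100a1-S100a13 ranked 1 of 171. The next pair, P3h4-Fkbp10, had 0.32. The pairs were not matched to S100a1 and S100a13 for level or for spread between cells.

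**Figure D5:**
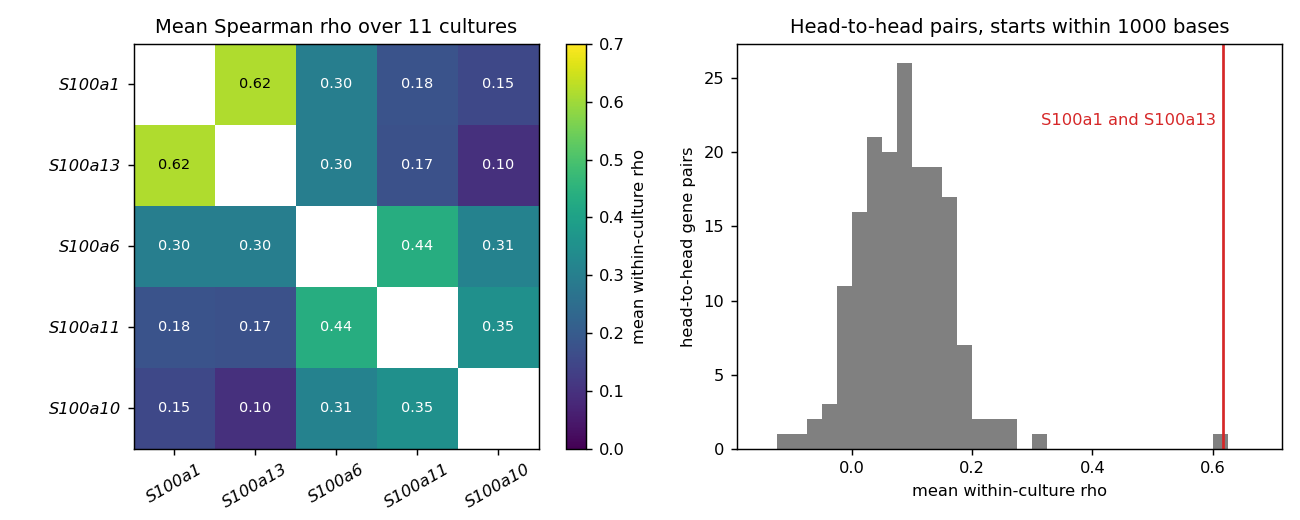
Left, mean within-culture Spearman correlation over 11 cultures between the 5 abundant members, with the value in each cell of the grid; right, number of head-to-head gene pairs against mean within-culture correlation for 171 pairs, with a red line at S100a1 and S100a13. The pair at 0.62 stands beyond the next, at 0.32, and the other large values on the left join S100a6, S100a11 and S100a10.

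Over 6801 genes with a mean of at least 20 CPM, the genes most like S100a1 were S100a13 (mean correlation 0.62), Anxa5 (0.50), an annexin that binds phosphatidylserine, and Cst3 (0.48), the secreted protease inhibitor cystatin C. Those most like S100a13 were S100a1, Anxa5 (0.46) and Glmp (0.37), a lysosomal membrane protein. S100a6 was most like Lgals1 (0.46), which encodes galectin 1, S100a11 (0.44) and Tmsb4x (0.41), the actin-binding thymosin beta 4. S100a10 was most like Tmsb4x (0.36), S100a11 (0.35) and Hspb1 (0.32), a small heat shock protein, and S100a11 was most like Tmsb4x (0.44), S100a6 (0.44) and S100a10 (0.35). The 95th percentile over all candidates lay between 0.13 and 0.18 for these 5 members. Likeness was computed for members with a read in at least 5 thinned cells of every culture. S100a4, S100a16 and S100b did not meet this.

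The rest of the family was nearly silent. Of the 10 other S100 symbols in the tables, S100a2, S100a5, S100a9, S100g, S100z and S100a11-ps had 0 reads in the retained cells, S100a8 had 1, S100a7a had 23 in 1 cell and S100a3 had 68 in 9 cells. S100a14 had 724 reads in 45 cells, with 2.35, 4.52 and 2.61 CPM at day 1, 0.298 to 1.29 CPM at day 3 and 0.0361 to 1.38 CPM at day 7. Only 2 of these genes had enough reads to be tested, and edgeR called neither in any comparison. The alarmin pair S100a8 and S100a9, abundant in neutrophils, was thus at 1 read in all.

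Intracellular partners of S100 proteins were followed through a list of 15 genes, of which 14 were tested. At day 7 against day 1, 5 were called lower and none higher, where 7.11% of all genes were called and 3.56% were called lower, and the median log2 difference of the list was -0.32. The S100a10 partner Anxa2 fell from 1080 ± 296 CPM (SD, n = 3) to 437 ± 229 (n = 5), a log2 difference of -1.3 (SE 0.34, edgeR adjusted p = 0.0391), although the cultures of the 2 days overlapped. Anxa5 fell from 1696 ± 552 to 519 ± 176 CPM (-1.71, adjusted p = 0.00371). Ahnak, a giant scaffold protein bound by the S100a10-annexin A2 complex, fell from 30.7 ± 25.8 to 1.80 ± 1.44 CPM (-4.11, adjusted p = 0.00751). Anxa3 and Anxa4 were the others called. At day 7 against day 3, where 0.968% of all genes were called, only Anxa3 was called, with a log2 difference of -3.01 (edgeR adjusted p = 0.0289), and Ahnak (-3.32) and Anxa5 (-1.08) missed with adjusted p-values of 0.0521 and 0.0851. None of the list was called at day 3 against day 1, where the smallest adjusted p-values belonged to Anxa5 (-0.63, adjusted p = 0.57), Anxa3 (0.93) and Anxa1 (4.04).

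Of 6 reported receptors of extracellular S100 proteins, none was called in any comparison. Ager, which encodes the receptor for advanced glycation end products, had 1.42 ± 1.03 CPM at day 1 and 0.531 ± 0.602 at day 3 (SD, n = 3 each). Tlr4 had 6.68 ± 4.54 CPM at day 1, and its day 7 against day 1 difference of -2.78 (SE 0.95) had an adjusted p of 0.0957. Bsg, which encodes basigin, was the abundant one, with 1209 ± 209 CPM at day 1 and 831 ± 131 at day 7 (-0.54, adjusted p = 0.109). Fgfr1 (day 3 against day 1, -0.80, adjusted p = 0.444) and Alcam (day 7 against day 1, -0.94, adjusted p = 0.188) did not pass, nor did Fgfr1, Tlr4 and Bsg at day 7 against day 3 (0.71, -1.96 and -0.38).

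Other EF-hand proteins gave a background for the family's calcium-binding fold, with 21 of 23 tested. At day 7 against day 1, 2 of the 21 were called, both lower, where 7.11% of all genes were called and 3.56% were called lower. Sparc, a secreted matrix protein with an EF-hand domain, fell from 2725 ± 303 to 531 ± 320 CPM (-2.36, SE 0.36, edgeR adjusted p = 0.00325), and the calpain subunit Capn2 fell from 258 ± 24.5 to 110 ± 28.1 CPM (-1.23, adjusted p = 0.0126). Pef1 had the third smallest adjusted p, 0.0722, with a value of 0.71. At day 7 against day 3, with the same 0.968% over all genes, the one call was Pvalb, a parvalbumin of hair cells, which went from 20.7 ± 20.0 to 0.0272 ± 0.0447 CPM (-9.34, adjusted p = 0.0465), and Capn2 (-1.03) missed. Hair cell markers, Pvalb among them, summed to between 46.7 and 331 CPM in a day 3 culture and between 21.5 and 40.5 CPM at day 7, and their part in the Pvalb value was not tested. None was called at day 3 against day 1, where the smallest adjusted p-values were those of Sparc (-0.90), Calm2 (0.55) and Pvalb (3.58). The median log2 difference of the list at day 7 against day 1 was -0.36, beside 0.0028 over all genes and -1.83 over the S100 members.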

How the data were processed

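Single cells of mouse cochlear organoids were profiled with SmartSeq2, per the labels, a full-length method that as standard marks neither strand nor molecules. The deposited values are expected counts of genes by cell, not normalised by the authors, in 2 tables of 384 cells each; the submitters' processing notes name STAR 2.5.3a, RSEM 1.3.0 and mm10/GRCm38 without stating their roles. Of values above 0, 10.6% were not whole, for members only S100a11 (7.58% of its values above 0) and S100a4 (1 cell). Here counts were rounded, and cells kept with at least 50000 reads on genes, 1500 genes and at most 20% mitochondrial reads (711 of 768). Columns were matched to samples by library name. Counts were summed per culture and tested by quasi-likelihood in edgeR 4.0.16 (R 4.3.3), with TMM scaling, filterByExpr grouped by day and a single fit of day over the 11 cultures, and called at a Benjamini-Hochberg adjusted p under 0.05 over all genes tested. SEs are the fold change divided by the root of F. Alternatives used DESeq2 1.42.0 and limma 3.58.1. The fits were tested on simulated counts. Shares of cells were compared with exact permutation tests over cultures, adjusted over 8 members and 3 pairs of days. PCR copies are not independent molecules, so intervals cover counting error only.

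The members and gene lists were chosen with earlier results of these data known. From the partner, receptor and EF-hand lists the 3 genes with the smallest adjusted p in each comparison are named, and for each member the 3 genes with the highest mean within-culture Spearman correlation. Some genes that this rule or a marker list holds are not reported here. The comparison of the 2 tables, of head-to-head pairs and the motif search were added after values had been seen.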

Additional observations from a re-analysis of the deposited data

Results flagged for a closer look

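In a group of 5 cultures a value stands apart when its gap to the nearest other exceeds 0.71 of the group's range, which chance gives in about 1 group of 20; 16 groups of day 7 values were examined. S100a1 in day 7 culture 5 stood apart at 563 CPM, with a gap of 0.943 of the range above the other 4 cultures. S100a13 in the same culture stood apart at 52.0 CPM (0.752). This is the one day 7 culture in the second deposited table, and every second-table culture of days 1 and 3 was high in both genes too. Day 7 culture 5 held 19 cycling and 56 non-cycling cells. Cultures 1 to 4 held 22 and 17, 15 and 22, 60 and 9, and 57 and 21. Culture 5 had a median of 5681 genes and 6.76% mitochondrial reads per cell, beside 6201 to 7156 genes and 3.90% to 4.51% in cultures 1 to 4. The part of these in the 2 values was not tested.

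The share of cells with a read of S100a4 (5.13%, 2 of 39 cells) and of S100b (7.69%, 3 of 39 cells) stood apart in day 7 culture 1. The exact 95% intervals of these shares were 0.627% to 17.3% and 1.62% to 20.9%. The other day 7 cultures had S100a4 shares of 0% to 1.45% and S100b shares of 1.28% to 2.90%.

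S100a1 moved in opposite directions in the 2 tables at day 7 against day 1: all 4 day 7 cultures of the first table were below its day 1 culture, and the 1 day 7 culture of the second table was above both of its day 1 cultures. The edgeR interaction of day and table was 0.76 on the log2 scale (SE 0.39, unadjusted p = 0.0795, adjusted p = 0.792), so the difference did not pass.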

How the results depend on the processing

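S100a6 was called lower at day 7 than at day 1 in all 23 alternatives tried for it (-4.53 to -3.17). Of 8 members, the number called at day 7 against day 1 was 3 and became 1 with the first or the second table alone and 5 with limma on mean CPM per cell; leaving out each culture gave 3 to 4. At day 7 against day 3 it was 1, and became 3 without the filter on low counts, with all cells, with the stricter cell filter and with DESeq2, 2 without cells with hair cell transcripts and with limma, and 0 with either table alone; leaving out each culture gave 1 to 3, the 3 without day 7 culture 5. With a replicate block it was 3 at day 7 against day 3 (S100a6, S100a10, S100a13) and 4 at day 7 against day 1. Across genes, deviations from the day mean correlated at -0.01 to 0.061 over 9 same-numbered pairs of cultures (median 0.029). The 30 other pairs ran from -0.085 to 0.072 (median -0.013). The labels do not say that the numbers pair cultures, so the block is given as an alternative only. Members called between tables were 1, and 0 among non-cycling cells; leaving out each culture gave 0 to 2 (0 without day 3 culture 1 or day 7 culture 5).

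The cause of changed signs was not tested; none of these values was called. For S100a1 at day 3 against day 1 they were -0.32 (first table), -0.10 and -0.28 (without day 1 culture 1 and without day 3 culture 2; -0.28 to 0.61 leaving out each culture); at day 7 against day 1, 0.071 (table as a term), 0.47 (second table) and 0.13 (non-cycling cells); at day 7 against day 3, 0.16 (second table). S100a13 was 0.11 at day 3 against day 1 in non-cycling cells. S100a4 was 0.10 at day 7 against day 3 without day 3 culture 2 (-1.51 to 0.10 leaving out each). S100a16 at day 3 against day 1 was 0.16 (table as a term), 0.0049 (replicate block), 1.96 (first table), 0.65, 0.035 and 0.22 (without day 1 culture 2, day 1 culture 3 and day 3 culture 1; -0.61 to 0.65 leaving out each), 0.37 (non-cycling cells) and 0.095 (limma), and 0.87 at day 7 against day 1 in the first table. Shares of cells changed sign, in percentage points, for S100a11 at day 7 against day 3 (-2.74 at 100000 reads, -22.1 at 10 reads or more), S100a1 (-4.04 at 10 reads), S100b (-0.16 and -1.32) and, at day 3 against day 1, S100a16 (0.69). Over all genes, calls moved by over 1.5 times: at day 7 against day 1 from 1241 to 2747 (DESeq2), 185 (non-cycling cells), 15 and 125 (first and second table) and 436 to 1380 (leaving out each culture); at day 7 against day 3 from 169 to 762, 73, 0 and 20, and 35 to 174, with 96 under the replicate block, 102 with table as a term; at day 3 against day 1 from 2 to 368 (DESeq2), 69 (limma), 13 (no filter on low counts), 18 (second table), 22 (replicate block) and 0 to 5. Calls between tables were 4, and 0 to 7 leaving out each culture.

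Low counts limit S100a4, S100a16 and S100b most.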
